A study of Mus musculus with 12 samples.

Results

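The set described here holds the genes that bring proteins into mitochondria, shape the mitochondrial network and hold mitochondria against the endoplasmic reticulum (ER). Members were chosen by gene symbol alone, as all listed *Timm* and *Tomm* genes with a number after that prefix, *Vdac1* to *Vdac3*, and 14 further named genes, which gave 42 of the 21669 transcript names listed, 1 name per gene. They fall into 10 functional groups. The outer membrane translocase (TOM) has 10 members, *Tomm5*, *Tomm6*, *Tomm7*, *Tomm20*, *Tomm20l*, *Tomm22*, *Tomm34*, *Tomm40*, *Tomm40l* and *Tomm70a*. The inner membrane presequence translocase (TIM23) has 6, *Timm17a*, *Timm17b*, *Timm21*, *Timm23*, *Timm44* and *Timm50*. The carrier translocase (TIM22) has 3, *Timm22*, *Timm29* and *Timm10b*, and the small TIM chaperones are 6, *Timm8a1*, *Timm8a2*, *Timm8b*, *Timm9*, *Timm10* and *Timm13*. The others are the 3 porins, the fusion genes *Mfn1*, *Mfn2* and *Opa1*, the proteases *Oma1* and *Yme1l1* that cut OPA1, the fission genes *Dnm1l*, *Fis1* and *Mff*, the crista junction genes *Immt*, *Chchd3* and *Chchd6* (the MICOS complex), and the ER contact genes *Rmdn3*, *Vapb* and *Pacs2*.

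Ribosome profiling and RNA sequencing were done on left ventricular tissue of adult wild-type (WT) mice and of adult mice homozygous for loss of *Rpl3l* (*Rpl3l*-/-, here KO), with 3 biological replicates per genotype and assay and 12 libraries in all. Ribosome-protected fragments (RPF, here footprints) came from lysate digested with RNase I in the presence of cycloheximide, and the RNA libraries from poly(A)-selected RNA of undigested lysate. Strain, sex, age beyond adult and the design of the knockout allele were not given in the sources used here. *Rpl3l* encodes a striated-muscle form of the large-subunit ribosomal protein RPL3, so the comparison asks how mRNA levels and ribosome occupancy differ in a heart without it.

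Nearly all mitochondrial proteins are made on cytosolic ribosomes and enter through the TOM complex. From there presequence proteins pass to TIM23, while small TIM chaperones carry membrane proteins across the intermembrane space to TIM22. Porins are the metabolite channels of the outer membrane. Mitofusins and OPA1 fuse the outer and inner membranes, DRP1 (encoded by *Dnm1l*) divides mitochondria after recruitment by MFF, and RMDN3 binds the ER protein VAPB to form a contact site. Cardiac muscle is packed with mitochondria that lie in rows between myofibrils and against the sarcoplasmic reticulum, a specialised ER.

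The libraries held 3827862 to 7474602 footprint counts and 6635242 to 8459004 RNA counts. The 42 members took 0.665% to 0.733% of footprint counts and 0.126% to 0.198% of RNA counts, and transcripts of the mitochondrial genome took 49.8% to 58.2% of RNA counts and 2.28% to 5.22% of footprint counts. Values per library are CPM, counts relative to a library size scaled by TMM. *Rpl3l* was at 428, 354 and 349 CPM in WT RNA and 40.8, 46.4 and 44.8 CPM in KO RNA, and at 193, 260 and 234 CPM in WT footprints and 8.76, 4.398 and 12.8 CPM in KO footprints, so the level went with the genotype label in all 12 libraries. All 9 cardiomyocyte markers had counts in every library, with a summed footprint level of 111900 to 125900 CPM, and the WT and KO ranges of the summed atrial, fibroblast, endothelial, mural, blood and adipocyte markers overlapped in both assays. Summed macrophage markers overlapped in footprints, and in RNA were at 93.6 to 93.9 CPM in WT and 78.6 to 85.9 CPM in KO.

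Libraries stood apart in both assays in ways that genotype did not set. Along the first principal component of the RNA libraries (46.2% of the variance), WT 3, KO 1 and KO 3 lay between 19.5 and 25.4, and WT 1, WT 2 and KO 2 between -26.2 and -19.5. Those 3 libraries were also the highest 3 for 19 of the 37 members tested in RNA (51.4%), against 17.8% of all 8379 genes tested. *Vdac1*, a porin, showed it most clearly, at 23.4, 21.4 and 60.2 CPM in WT RNA and 47.7, 23.5 and 44.0 CPM in KO RNA. The same 3 libraries had the lowest summed cardiomyocyte marker RNA, at 45390 to 46200 CPM against 52440 to 62440 CPM in the others, and the part of this in the members' values was not tested. Among footprints, WT 1 lay at -64.1 on the first component (38.2% of the variance) and the other 5 libraries between 8.77 and 15.3. WT 1 was the highest library for 12 and the lowest for 10 of 38 members, against 22% and 23.9% of all genes.

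**Figure D1:**
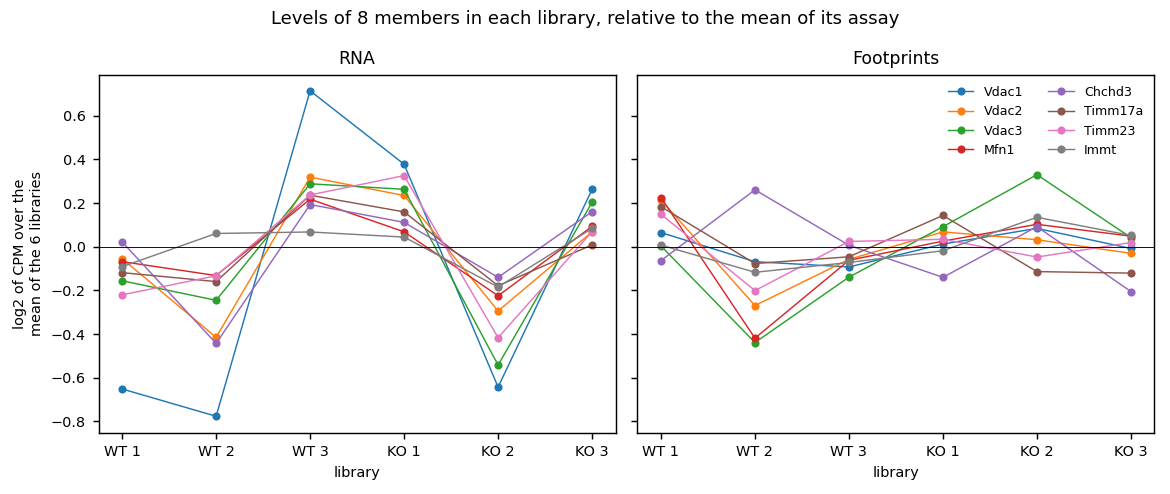
CPM of 8 abundant members in each library (log2 relative to the mean of the 6 libraries of that assay), RNA on the left and footprints on the right, with 1 line per gene. In RNA, Vdac1 is high in WT 3, KO 1 and KO 3 and low in WT 1, WT 2 and KO 2, and the other porins follow the same course. In footprints the lines do not take that course.

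The small TIM chaperones share a sequence signature that the choice by symbol did not use. They are shown because they hold both the member with the largest footprint difference between genotypes (*Timm9*) and a member without any count (*Timm8a2*). Each small TIM protein folds around a twin CX3C motif. This was searched in the reading frame of the coding strand as a cysteine codon (TGT or TGC), 3 codons and a cysteine codon, then 11 to 18 codons and the same pair again. Of 21321 coding sequences of GENCODE M21 (GRCm38) matched to listed names, 458 (2.15%) held it, and among the members it was in 7, all 6 small TIM genes and *Timm10b*. The stretch from the first to the last of these cysteine codons is given 5′ to 3′ on the coding strand, with the 4 cysteine codons in capitals.
Timm9: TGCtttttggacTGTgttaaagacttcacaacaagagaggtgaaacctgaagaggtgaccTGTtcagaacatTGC
Timm10: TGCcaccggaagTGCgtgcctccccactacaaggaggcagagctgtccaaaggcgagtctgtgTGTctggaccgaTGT
Timm13: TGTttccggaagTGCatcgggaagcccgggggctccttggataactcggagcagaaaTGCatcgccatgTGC
Timm8a1: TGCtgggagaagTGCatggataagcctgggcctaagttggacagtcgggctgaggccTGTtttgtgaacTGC
Timm8a2: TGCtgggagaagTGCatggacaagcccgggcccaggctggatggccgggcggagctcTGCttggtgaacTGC
Timm8b: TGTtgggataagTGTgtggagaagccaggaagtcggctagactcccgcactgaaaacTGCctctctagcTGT
Timm10b: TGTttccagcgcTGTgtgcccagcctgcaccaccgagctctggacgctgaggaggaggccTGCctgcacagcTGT
These stretches begin at coding base 82 in *Timm9* (chromosome 12), 85 in *Timm10* (chromosome 2), 136 in *Timm13* (chromosome 10), 127 in *Timm8a1* (chromosome X) and *Timm8a2* (chromosome 14), 106 in *Timm8b* (chromosome 9) and 73 in *Timm10b* (chromosome 7). The pairs are 14 codons apart in *Timm8a1*, *Timm8a2*, *Timm8b* and *Timm13*, 15 in *Timm9* and *Timm10b*, and 16 in *Timm10*.

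*Chchd3* and *Chchd6*, the MICOS subunits MIC19 and MIC25, carry the related twin CX9C signature, with 9 codons inside each pair and, in the search, 5 to 30 between the pairs. It was in 649 of the 21321 coding sequences (3.04%) and in no other member. In both genes on chromosome 6 the pairs lie 10 codons apart, with the cysteine codons again in capitals.
Chchd3: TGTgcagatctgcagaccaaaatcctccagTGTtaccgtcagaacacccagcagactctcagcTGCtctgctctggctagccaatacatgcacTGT
Chchd6: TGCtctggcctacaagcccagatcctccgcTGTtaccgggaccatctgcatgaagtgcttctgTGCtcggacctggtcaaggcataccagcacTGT
The stretch spans coding bases 547 to 642 in *Chchd3* and 703 to 798 in *Chchd6*.

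In footprints per kilobase (kb) of coding sequence, a scale that compares ribosome load between genes, the porins led the set. *Vdac1* (chr11:52360860-52389397, plus strand) stood at 1964 ± 118 CPM per kb in WT (mean ± SD, n = 3 libraries here and below) and 2048 ± 69.4 in KO. *Vdac2* followed at 826.8 ± 140 and 854.6 ± 29.3 CPM per kb. *Immt*, the core MICOS subunit, came next at 403.9 ± 17.7 and 438.1 ± 23.4 CPM per kb. The libraries of *Vdac1* and *Vdac2* did not overlap in WT, nor did those of *Vdac2* and *Immt*. From *Immt* down to *Rmdn3* each gene overlapped its neighbour in the order. After *Immt* the order runs through *Timm17a* (403.5 CPM per kb in WT), *Tomm7* (391.1), *Mfn2* (334.3), *Vdac3* (321.2) and *Timm23* (302.9). Of 38 members that passed the count filter for footprints, 35 (92.1%) lay above the median of 13.3 CPM per kb of all genes tested with a matched coding length, and the members' median was 90.5.

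*Pacs2* and *Rmdn3*, both ER contact genes, had the lowest footprint levels of the members that passed the filter. *Pacs2*, a sorting protein that keeps ER and mitochondria in contact, stood at 5.13 ± 0.761 CPM per kb in WT and 4.70 ± 0.890 in KO. *Rmdn3*, which encodes the mitochondrial tether, stood at 10.2 ± 2.48 in WT and 9.05 ± 2.19 in KO. *Timm9*, a small TIM that forms a hexamer with TIMM10, was next in WT, at 11.6 ± 2.80 CPM per kb against 126.3 ± 35.4 for *Timm10*, and overlapped *Rmdn3*. *Vapb*, the ER partner of *Rmdn3*, was not low, at 93.4 ± 4.84 CPM per kb in WT and 81.8 ± 3.78 in KO. These values were near the members' medians of 90.5 in WT and 81.8 in KO.

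RNA per kb of coding sequence gave another order. *Tomm7*, which helps assemble the TOM complex, led with 295.6 ± 64.7 CPM per kb in WT, followed by *Fis1* at 293.5 ± 50.8 and *Chchd3* at 232.4 ± 50.2. *Vdac1*, first in footprints, was 16th of the members in WT RNA at 41.1 ± 25.7 CPM per kb, and *Mfn2*, the main outer membrane fusion gene by footprints, was 31st at 6.95 ± 1.22. If whole transcripts were counted, genes with long untranslated regions read too high on this RNA scale. In WT RNA, 35 of the 37 members tested lay above the median of 4.49 CPM per kb of all genes tested.

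**Figure D2:**
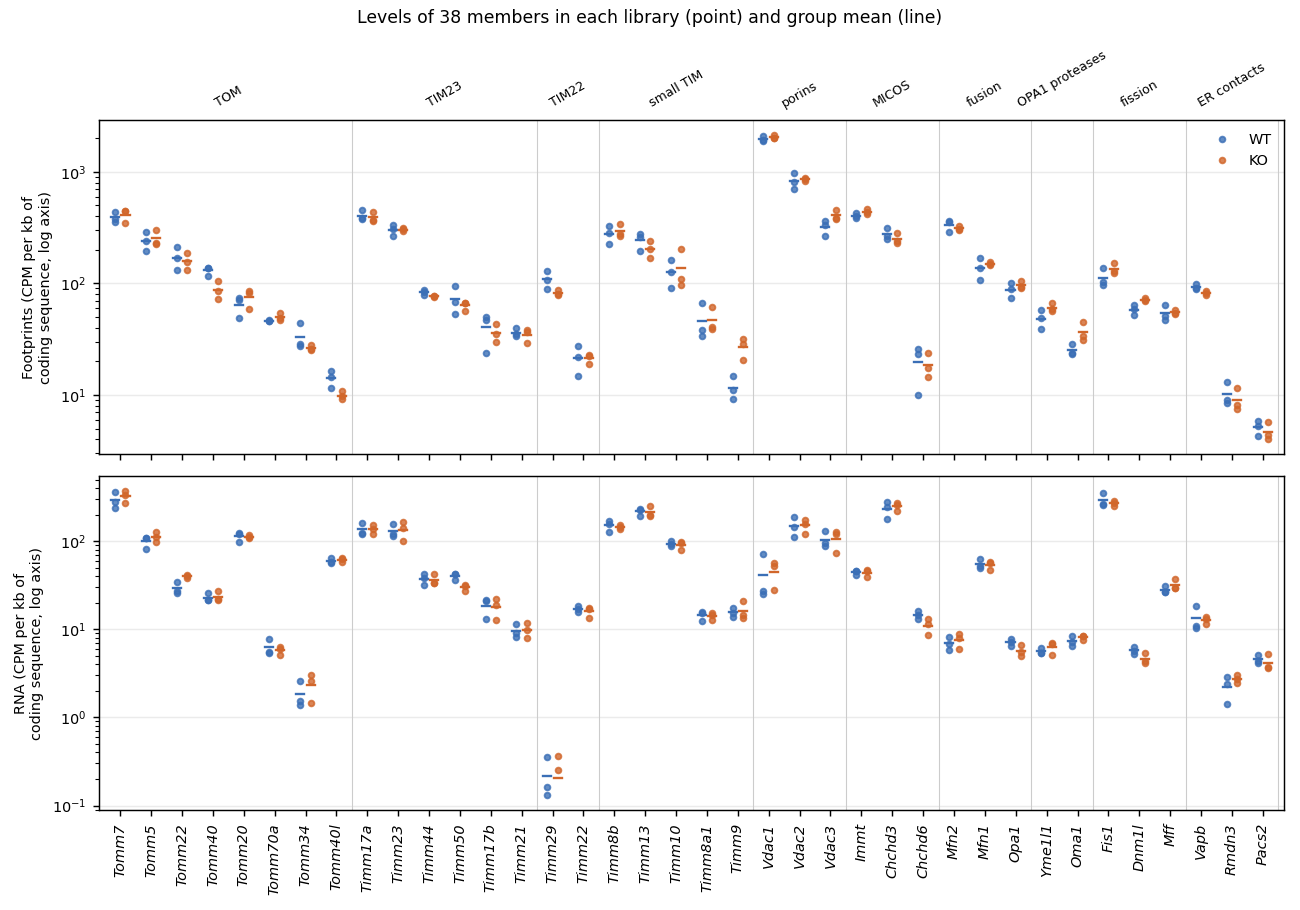
Footprints (top) and RNA (bottom) of 38 members in CPM per kb of coding sequence on log axes, with 1 point per library, blue for WT and orange for KO, lines at the group means, and vertical lines between the functional groups. Vdac1 is highest in footprints, at a WT mean of 1964, while Tomm7 and Fis1 are highest in RNA. Timm29 lies below 1 CPM per kb in RNA and near 100 in footprints.

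Footprints were then compared with RNA within each genotype, as a log2 ratio in which 0 is near the typical gene. In WT, edgeR's quasi-likelihood test with Benjamini-Hochberg adjustment called 28 of 37 members (75.7%) at an adjusted p below 0.05, against 73.8% of all 8044 genes tested, so the share of members called was near the background. By direction, 12 members had more footprints than their RNA gave at the typical ratio (32.4% against 38.3% of all genes) and 16 had fewer (43.2% against 35.6%). In KO, 28 members were called (75.7% against 72.6%), 11 higher (29.7% against 37.9%) and 17 lower (45.9% against 34.7%). The members' median ratio was -0.33 in WT and -0.16 in KO, against 0.05 and 0.08 over all genes. An offset for length was also fitted, footprints over coding length and RNA over transcript length. It gave 18 members called higher and 12 lower in WT, and 17 and 11 in KO. Shares of all genes called in that fit are not given here, so these counts have no background. The median of members was then 0.31 in WT and 0.19 in KO, against 0.116 and 0.0995 over all genes.

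The extremes lay within gene families. *Mfn2* (chr4:147873599-147904704, minus strand) had 821, 800 and 660 CPM of footprints in WT against 15.6, 13.1 and 18.6 CPM of RNA. Its log2 ratio was 3.93 (SE 0.199) in WT and 3.72 (SE 0.197) in KO, with adjusted p-values of 1.11e-10 and 1.66e-10 in edgeR's quasi-likelihood test. *Mfn1*, the other mitofusin, had 375, 240 and 308 CPM of footprints against 116, 111 and 141 CPM of RNA, a log2 ratio of -0.33 (SE 0.178) that did not pass (adjusted p = 0.103). That call depended on the setting. *Mfn1* was called lower in WT with DESeq2 (-0.41, adjusted p = 0.0298) and, in edgeR, without a count filter (-0.73, adjusted p = 0.00108). The same held in edgeR with a mean of at least 50 counts (-0.72, adjusted p = 0.00146) and without WT 1 (-0.59, adjusted p = 0.02). With the length offset *Mfn1* stood at -0.16 in WT and was not called (adjusted p = 0.418, edgeR). *Mfn1* RNA thus exceeded *Mfn2* RNA in every WT library, and *Mfn2* footprints exceeded *Mfn1* footprints in every one. *Opa1*, the inner membrane fusion GTPase, had a log2 ratio of 1.96 (SE 0.173) in WT and 2.42 (SE 0.177) in KO, both with an adjusted p of 3.53e-08 or less in the same test.

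The porins also differed among themselves. *Vdac1* had 1788, 1630 and 1603 CPM of footprints in WT and a log2 ratio of 3.92 (SE 0.347) in WT and 3.87 (SE 0.346) in KO (adjusted p = 3.59e-08 and 4.37e-08, edgeR). Its RNA differed between libraries of 1 genotype by more than that of any other member in the plot of 8 abundant genes, and its SE was the widest of the porins. *Vdac2* had a log2 ratio of 0.82 (SE 0.199) in WT, which was 0.42 and missed the threshold without the count filter (adjusted p = 0.074, edgeR), and *Vdac3* of -0.04 (SE 0.213), which did not pass (adjusted p = 0.883, edgeR). Paralogous porins therefore spanned nearly the whole range from the typical gene to the top of the set.

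Among the TOM genes, *Tomm40*, the translocation pore, and its paralog *Tomm40l* were called in opposite directions in WT. *Tomm40l* (chr1:171216011-171222514, minus strand) had 53.3, 52.9 and 60.6 CPM of RNA in WT but 15.2, 10.8 and 13.5 CPM of footprints. Its log2 ratio was the lowest of the set, -3.73 (SE 0.177) in WT and -4.27 (SE 0.181) in KO, with adjusted p-values of 6.93e-11 and 3.8e-11 in edgeR's quasi-likelihood test. With the length offset *Tomm40l* stood at -2.25 and -2.8, still called lower, and *Fis1* was the lower of the pair in WT, at -3.14. *Tomm40* had 23.1, 23.4 and 27.97 CPM of RNA and 150, 148 and 127 CPM of footprints in WT, and a log2 ratio of 0.85 (SE 0.175, adjusted p = 0.000336, edgeR). Without the count filter it was 0.45 and missed the threshold (adjusted p = 0.0616), and in KO *Tomm40* stood at 0.26 (SE 0.174) and did not pass (adjusted p = 0.187, edgeR). The receptor gene *Tomm20* was at -2.48 (SE 0.200) in WT and -2.23 (SE 0.196) in KO, both called lower, but the length offset turned it to 0.13 and 0.39, neither called. *Tomm7* went from -1.26 and -1.30, called lower, to 0.62 and 0.58 with the offset, called higher (adjusted p = 0.00838 and 0.0125, edgeR). The receptor gene *Tomm70a* was called higher either way, at 1.23 in WT and 2.06 with the offset, as was *Tomm34*, a cytosolic cochaperone of import, at 2.48 (SE 0.308) and 2.92. Calls of *Tomm7* and *Tomm20* thus rested on how length was treated. So did that of the TIM23 gene *Timm17a* in WT, at -0.09 (not called) and 2.86 with the offset (adjusted p = 4.55e-10, edgeR).

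Of the 5 small TIM genes tested, *Timm8b*, *Timm9*, *Timm10* and *Timm13* were called lower in both genotypes, against 35.6% of all genes in WT and 34.7% in KO, and the median log2 ratio of the 5 was -1.23 in WT and -0.90 in KO. *Timm8a1* was not low, at 0.02 (SE 0.300) in WT and 0.10 (SE 0.298) in KO. With the length offset *Timm8a1* was called higher, at 1.42 and 1.5, and fewer of the others stayed called lower. *Timm13* in WT (-0.28, adjusted p = 0.179, edgeR) and *Timm10* in KO (-0.57, adjusted p = 0.0515, edgeR) then missed the threshold. *Timm9* stood at -2.09 (SE 0.338) in WT and -0.90 (SE 0.306) in KO, and with the offset at -1.09, still called, and 0.10, not called. Of the fission genes, *Fis1* was at -3.05 (SE 0.194) and *Mff* at -0.72 (SE 0.170) in WT, both called lower, while *Dnm1l*, the fission GTPase, was at 1.68 (SE 0.167) and called higher. Neither filter nor offset turned *Mff* in WT, which ran from -1.12 without a filter to -0.47 with the offset. *Immt* at 1.51 (SE 0.148; 0.91 with the offset) and *Chchd3* at -1.41 (SE 0.183) were called in opposite directions within MICOS. Across the 37 members the WT and KO ratios had a Pearson r of 0.98, a description across genes of libraries handled together.

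The length of the 3′ untranslated region (3′ UTR) moved with this ratio over all genes. The median log2 ratio in WT was -0.84 for genes with a 3′ UTR of up to 500 bases, 0.55 above 500 and up to 1000, 0.90 above 1000 and up to 2000, and 0.79 above 2000. Over the same bins, median RNA per kb of coding sequence went from 10.7 to 2.86 CPM while median footprints per kb went from 19.71 to 17.95. The Spearman correlation of ratio and 3′ UTR length was 0.38 over 7981 genes and 0.20 over the 37 members, and that of ratio and coding length was 0.20 over all genes and 0.52 over the members, all descriptions across genes. Within their own length bin, *Vdac1* (874 bases of 3′ UTR) still stood at percentile 98.3, *Mfn2* (1790) at 95.5 and *Immt* (314) at 94.8. *Tomm40l* (3510) stood at percentile 2.4, *Tomm20* (4348) at 6.6 and *Fis1* (220) at 8.4. These percentiles use the ratio without the length offset, and the bins leave coding length aside. With that offset *Tomm20* was at 0.13 in WT and not called. Whether untranslated regions were counted is not given in the sources used here, and the part of that in these ratios was not tested.

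**Figure D3:**
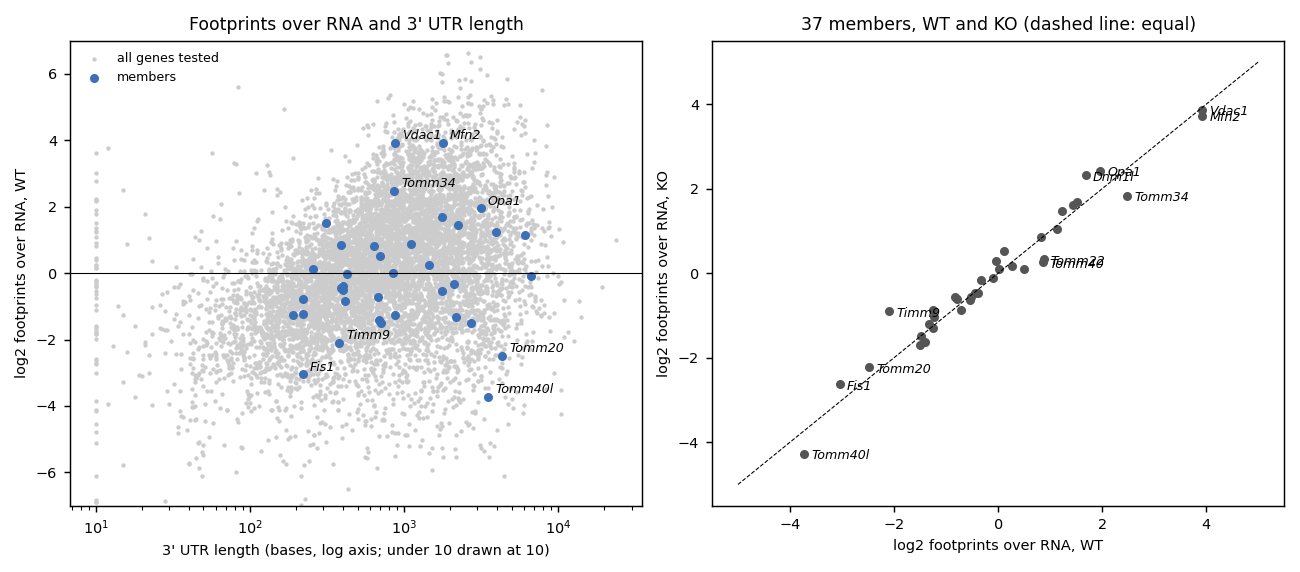
Left, the log2 ratio of footprints to RNA in WT against 3′ UTR length in bases (log axis), in grey for all genes tested and in blue for members. Right, the same ratio of each member in WT and KO, with the dashed line marking equal values. Vdac1 and Mfn2 are at the top and Tomm40l and Fis1 at the bottom of both panels, and Timm9 lies above the line.

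Between genotypes, no member passed an adjusted p below 0.05 in RNA, in footprints or in translational efficiency (TE, the difference between genotypes in footprints relative to RNA). Over all genes edgeR's quasi-likelihood test called 1 gene of 8379 in RNA (0.0119%), 1 of 11153 in footprints (0.00897%) and 0 of 8044 in TE (0%), and the gene in RNA and footprints was *Rpl3l*. The lowest adjusted p of a member was 0.999 in RNA, 0.833 in footprints and 1 in TE. At an unadjusted p below 0.05 there were 2 of 37 members in RNA (5.41% against 2.54% of all genes), 5 of 38 in footprints (13.2% against 5.96%) and 4 of 37 in TE (10.8% against 3.73%). DESeq2 also called 0 members in each comparison. The median log2 fold change of members was 0.01 in RNA, 0.01 in footprints and 0.00 in TE, against -0.01, 0.00 and 0.01 over all genes. In bulk tissue, fewer cells of a type and less RNA per cell cannot be told apart.

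In RNA the KO libraries were all higher than the WT libraries for 1 member (2.7% against 4.14% of all genes), and in footprints for 5 members (13.2% against 6.27%). They were all lower for 2 members in RNA (5.41% against 3.19%) and 5 in footprints (13.2% against 5.77%). The 5 above in footprints were *Dnm1l*, *Oma1*, *Timm9*, *Tomm70a* and *Vdac3*, and the 5 below were *Timm29*, *Timm44*, *Tomm40*, *Tomm40l* and *Vapb*. TOM members were on both sides, *Tomm70a* above and *Tomm40* and *Tomm40l* below.

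**Figure D4:**
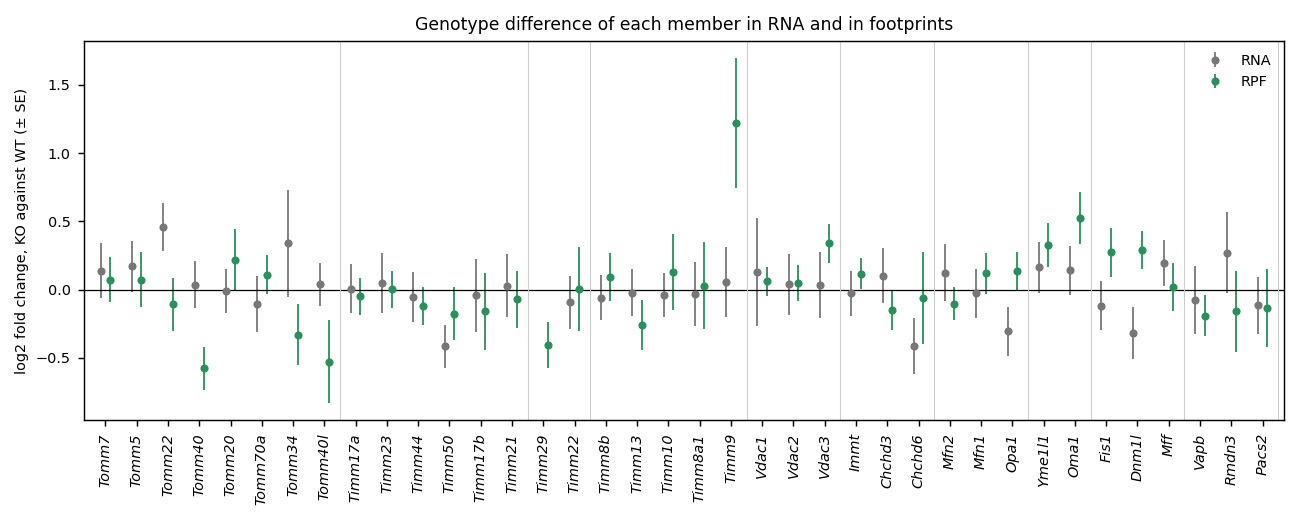
Log2 fold change of KO against WT with its SE for each member tested, in grey for RNA and in green for footprints (RPF), in the order of the functional groups. Timm9 has the largest footprint value, 1.22, with a wide SE, and Tomm40 the lowest, -0.58. No member passed the adjusted threshold.

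Of the members, *Tomm40* had the lowest unadjusted p in footprints. *Tomm40* (chr7:19701329-19715425, minus strand) had 150, 148 and 127 CPM of footprints in WT and 114, 78.4 and 92.6 in KO, without overlap. Its RNA was at 23.1, 23.4 and 27.97 CPM in WT and 29.4, 23.4 and 23.7 in KO, with overlap. The log2 fold change was -0.58 (SE 0.161, unadjusted p = 0.00268, adjusted p = 0.833, edgeR) in footprints, 0.04 (SE 0.171) in RNA and -0.59 (SE 0.246, unadjusted p = 0.0287) in TE. *Tomm40l* footprints were at 15.2, 10.8 and 13.5 CPM in WT and 8.49, 9.97 and 9.01 in KO, a log2 fold change of -0.53 (SE 0.303) in footprints and -0.55 (SE 0.238, unadjusted p = 0.0352, adjusted p = 1, edgeR) in TE. Both pore paralogs were thus lower in footprints in every KO library than in any WT library, at about the same RNA.

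*Tomm22*, the central TOM receptor, differed in RNA instead. It was at 11.04, 11.8 and 14.7 CPM in WT RNA and 17.4, 17.8 and 16.5 in KO RNA, a log2 fold change of 0.46 (SE 0.176, unadjusted p = 0.0265, adjusted p = 0.999, edgeR). Its footprints overlapped, with a log2 fold change of -0.11 (SE 0.192). *Timm50*, the TIM23 receptor for presequences, was at 45.2, 45.2 and 38.6 CPM in WT RNA and 33.4, 29.1 and 34.0 in KO RNA, a log2 fold change of -0.42 (SE 0.159, unadjusted p = 0.0258, adjusted p = 0.999, edgeR). *Timm50* footprints overlapped between genotypes, at -0.18 (SE 0.194). The RNA groups of *Tomm22* and *Timm50* did not overlap, and neither RNA difference was matched by a separation in footprints.

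*Timm29*, a TIM22 subunit (chr9:21592722-21595970, plus strand), was almost absent from the RNA libraries, with 0 to 2 counts in each, at or under the detection floor of 3 counts. Footprints were plentiful, with 350, 392 and 404 counts in the WT and 463, 438 and 334 in the KO libraries. On the CPM scale the WT libraries stood at 72.0, 103 and 85.4 and the KO libraries at 62.4, 64.2 and 70.0, a log2 fold change of -0.41 (SE 0.166, unadjusted p = 0.0268, adjusted p = 0.834, edgeR). Without WT 2 the value was -0.26. The KO libraries lay below the WT libraries. *Timm29* did not pass the RNA count filter, so the main fits give it no RNA, TE or ratio value. Fits without a filter put its footprints over RNA at a log2 ratio of 6.9 in WT and 6.52 in KO, both called, and its TE at -0.38 (SE 1, adjusted p = 1, edgeR), all on RNA counts at or under the floor, so these fitted values are no bound.

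*Timm9* (chr12:71123174-71136648, minus strand) had the largest difference of the set, on few counts. Footprints numbered 12, 15 and 14 in the WT libraries and 41, 53 and 41 in the KO libraries, or 2.47, 3.95 and 2.96 CPM against 5.53, 7.77 and 8.59 CPM. The log2 fold change in footprints was 1.22 (SE 0.476, unadjusted p = 0.0215, adjusted p = 0.834, edgeR), and leaving out 1 library at a time gave 1.08 to 1.42. RNA stood at 26, 36 and 40 counts in the WT libraries and 38, 24 and 39 in the KO libraries, a log2 fold change of 0.05 (SE 0.258). In TE *Timm9* stood at 1.19 (SE 0.454, unadjusted p = 0.0187, adjusted p = 1, edgeR). The annotated 3′ ends of *Timm9* and *Tomm20l*, which lie on opposite strands, overlap, and *Tomm20l* had 6 footprint counts in WT 1 and none in the other 5 footprint libraries.

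Levels per kb of partner subunits were set beside each other as 14 ratios (7 pairs in each assay), chosen after levels were seen and given without a test. *Timm9* over *Timm10* in footprints was 0.101, 0.115 and 0.0681 in WT and 0.0997, 0.298 and 0.290 in KO. These overlapped, since KO 1 also had the highest *Timm10* level, 56.1 CPM. The WT and KO libraries were separate for 2 ratios. How often ratios of other gene pairs separate was not computed, so these 2 cannot be set against a background. The sum of *Timm8a1* and *Timm8b* over their partner *Timm13* was 1.31, 1.32 and 1.34 in WT footprints and 1.68, 1.51 and 1.89 in KO footprints. *Tomm22* over *Tomm40* was 1.21, 1.28 and 1.33 in WT RNA and 1.5, 1.93 and 1.76 in KO RNA.

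Of the porins, *Vdac3* footprints were at 311, 229 and 282 CPM in WT and 330, 390 and 319 in KO, without overlap. The log2 fold change was 0.34 (SE 0.143, unadjusted p = 0.0309, adjusted p = 0.834, edgeR), and 0.23 without WT 2. *Vdac3* RNA was at 80.8, 76.0 and 110 CPM in WT and 108, 61.9 and 104 in KO, with overlap. *Vdac1* footprints were at 1788, 1630 and 1603 CPM in WT and 1724, 1812 and 1700 in KO, a log2 fold change of 0.06 (SE 0.105). *Vdac2* footprints were at 866, 619 and 717 CPM in WT and 783, 763 and 731 in KO, a log2 fold change of 0.05 (SE 0.131). The abundant porins *Vdac1* and *Vdac2* thus overlapped between genotypes. *Vdac1* RNA had a log2 fold change of 0.13 (SE 0.395), which ran from -0.13 to 0.78 when 1 library was left out, the highest without WT 3.

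Among the fusion genes and their proteases no group separated in RNA. *Mfn2* footprints were at 821, 800 and 660 CPM in WT and 693, 686 and 745 in KO, a log2 fold change of -0.10 (SE 0.122). *Mfn1* footprints were at 375, 240 and 308 CPM in WT and 327, 345 and 332 in KO, at 0.12 (SE 0.151). *Opa1* footprints were at 288, 215 and 254 CPM in WT and 263, 300 and 269 in KO, at 0.14 (SE 0.138), and its RNA at -0.31 (SE 0.177). All 3 overlapped between genotypes. *Oma1*, the stress-activated protease that cuts OPA1, had 37.2, 36.6 and 45.3 CPM of footprints in WT and 69.9, 48.4 and 52.8 in KO, all 3 KO libraries above WT. Its log2 fold change was 0.52 (SE 0.190, unadjusted p = 0.0146, adjusted p = 0.834, edgeR) in footprints and 0.14 (SE 0.178) in RNA. Without KO 1, its highest library, the footprint value was 0.35. *Yme1l1*, the constitutive protease for OPA1, stood at 0.32 (SE 0.161) in footprints with overlapping groups.

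Of the fission genes, *Dnm1l* (chr16:16312233-16358938, minus strand) had 126, 111 and 136 CPM of footprints in WT and 158, 148 and 151 in KO. Its RNA was at 12.2, 13.5 and 11.2 CPM in WT and 9.31, 11.5 and 8.81 in KO. The footprint groups did not overlap, at a log2 fold change of 0.29 (SE 0.138), and the RNA groups did, at -0.32 (SE 0.189). The difference in opposite directions gave *Dnm1l* the lowest unadjusted p of any member in TE, at 0.63 (SE 0.235, unadjusted p = 0.0162, adjusted p = 1, edgeR). *Fis1*, an outer membrane adaptor, had 46.9, 44.8 and 62.6 CPM of footprints in WT and 59.3, 70.1 and 57.4 in KO, with overlap, at 0.27 (SE 0.179). *Mff*, the main DRP1 receptor, had 55.9, 41.4 and 44.8 CPM in WT and 47.7, 50.1 and 46.3 in KO, at 0.02 (SE 0.176).

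No MICOS or ER contact gene had an unadjusted p below 0.05 between genotypes. *Immt* footprints were at 962, 883 and 911 CPM in WT and 945, 1051 and 992 in KO, with overlap, at a log2 fold change of 0.12 (SE 0.111). *Chchd6* RNA was at 11.9, 13.4 and 10.9 CPM in WT and 7.09, 10.6 and 9.42 in KO, all KO libraries lower, at -0.41 (SE 0.205, unadjusted p = 0.0737, edgeR). All 3 ER contact genes had a negative footprint value. *Vapb* footprints were at 72.4, 66.9 and 65.8 CPM in WT and 62.5, 60.1 and 57.0 in KO, without overlap, at -0.19 (SE 0.152, unadjusted p = 0.23, adjusted p = 0.871, edgeR). *Rmdn3* footprints, on 50 to 121 counts, were at 12.7, 18.4 and 12.1 CPM in WT and 16.3, 11.6 and 10.5 in KO, at -0.16 (SE 0.299). *Rmdn3* RNA, on 14 to 42 counts, was at 2.01, 3.38 and 4.09 CPM in WT and 3.84, 3.44 and 4.25 in KO, at 0.27 (SE 0.299). *Pacs2* footprints were at 14.0, 11.6 and 15.7 CPM in WT and 10.8, 11.7 and 15.3 in KO, at -0.14 (SE 0.286). For *Rmdn3* and *Pacs2* the SE of the footprint value exceeded the value.

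Shares within paralog families need no scaling between libraries. Over 16 such shares, 8 genes in 2 assays, no exact two-sided permutation test passed after Benjamini-Hochberg adjustment (all adjusted p = 1), and 3 against 3 cannot give a p below 0.1. *Vdac3* was the 1 share whose libraries separated. Of all porin footprints it took 10.5%, 9.23% and 10.8% in WT and 11.6%, 13.1% and 11.6% in KO (10.2% ± 0.838 and 12.1% ± 0.875, SD, n = 3, exact permutation p = 0.1). The assays gave far more unequal shares than the genotypes. In WT *Vdac1* took 12.9% ± 4.32 of porin RNA and 62.6% ± 2.86 of porin footprints, and *Mfn2* 11.4% ± 0.695 of mitofusin RNA and 71.2% ± 4.90 of mitofusin footprints. *Tomm40l* took 69.2% ± 0.709 of the RNA of the pore pair and 8.54% ± 1.54 of its footprints. The shares are of raw counts and take no account of length, at 4712 bases for the *Tomm40l* transcript and 1646 for *Tomm40*. Whether whole transcripts were counted is not given, so a share of RNA counts need not be a share of mRNA molecules.

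**Figure D5:**
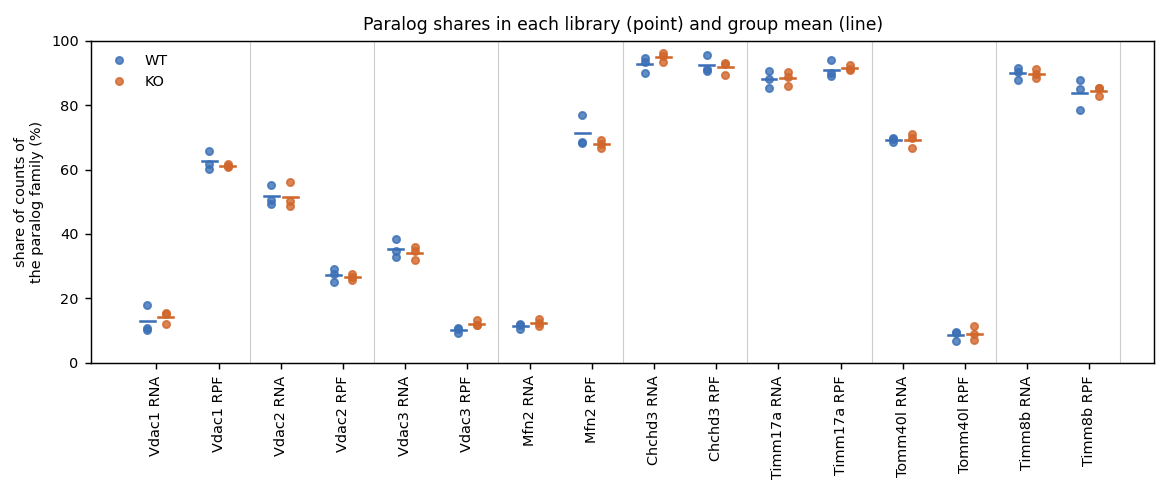
Share of the counts of a paralog family taken by 1 gene, in percent, per library (point) and as group mean (line), blue for WT and orange for KO. Vdac1 and Mfn2 hold a small share of RNA and a large share of footprints, and Tomm40l the reverse, in both genotypes. Vdac3 footprints are the only share whose WT and KO points are separate.

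For 5 members some or all comparisons could not be made. *Tomm6*, *Timm10b* and *Timm8a2* had 0 counts in all 12 libraries, and *Tomm20l* had 6 footprint and 2 RNA counts in all. *Timm29*, described above, passed the count filter in footprints alone. The whole coding sequence of *Tomm6* (chr17:47686646-47688183, minus strand, 225 coding bases) also lies within the listed transcript *Gm21981*-201, and that of *Timm10b* (chr7:105640056-105643637, plus strand, 303 coding bases) within *Gm45799*-208, both also at 0 counts. Over the whole list, 596 coding sequences had every 28-base window in another listed transcript, and 588 of them (98.7%) had 0 counts in all libraries, against 9.49% of 15119 coding sequences that shared no window. A 0 in such a transcript cannot be read as absent expression. *Timm8a2*, whose coding sequence shared no window with another gene, was listed at 0 as well, which allows at most the floor of 0.791 CPM in footprints and 0.449 CPM in RNA.

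Copies elsewhere in the genome make some other members uncertain, since how reads with several matches were counted is not given in the sources used here. Every 28-base window of the coding sequences of *Timm23* and *Timm8a1* occurs in another annotated gene or pseudogene. The share was 92.5% for *Vdac3*, 91.7% for *Tomm20*, 68.2% for *Tomm5*, 46.0% for *Timm17a*, 45.8% for *Tomm22* and 44.1% for *Vdac2*. Below these came *Tomm7* (39.01%), *Timm21* (30.65%), *Vdac1* (30.1%), *Dnm1l* (16.95%) and *Timm17b* (14.63%). Smaller shares were those of *Timm29* (8.27%), *Immt* (4.98%) and *Yme1l1* (2.73%). The share was 0% for *Timm9*, *Fis1*, *Mff*, *Opa1* and *Chchd3*, among others.

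Other genes of the same pathways were read from lists that hold no member, covering import motors, intermembrane space assembly, presequence processing, further MICOS, dynamics and quality control genes, and further ER contact genes. Of 71 such genes 67 were found. None passed an adjusted p below 0.05 between genotypes, in RNA (58 tested), footprints (63) or TE (58). At an unadjusted p below 0.05 there were 0 in RNA, 4 in footprints (2 higher, 2 lower) and 2 in TE, both higher, against the backgrounds of 2.54%, 5.96% and 3.73% given above. *Chchd2*, a twin CX9C relative of MICOS subunits, had the lowest p of its list in footprints at -0.66 (SE 0.188, unadjusted p = 0.00316, adjusted p = 0.833, edgeR). *Dnajc19*, a cochaperone of the import motor, stood at 0.50 (SE 0.215, unadjusted p = 0.0358) in footprints, and *Immp2l*, an inner membrane peptidase subunit, at 0.83 (SE 0.295, unadjusted p = 0.0124) in TE, both far from an adjusted threshold.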

How the data were processed

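The deposited files hold raw counts, whole numbers per transcript name that the authors made from their reads. Cutadapt 1.18 and Bowtie2 2.4.2 are named in the submitters' processing notes. Their settings, the genome build, the counting program, the region counted, whether strand was used and what was done with reads matching several places are not given in the sources used here. Of the 21669 names, 21425 (98.87%), all 42 members included, matched transcript names of GENCODE M21 (GRCm38), which gave coordinates, lengths and sequences.

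Low counts were removed with filterByExpr at its minimum count of 10. TMM-scaled counts were then tested with the quasi-likelihood test of edgeR 4.0.16 in R 4.3.3, with Benjamini-Hochberg adjustment over all genes tested and a threshold of 0.05. RNA and footprints were each fitted over 6 libraries with genotype, and TE and the ratio of footprints to RNA over 12 libraries with assay, genotype and their interaction. An SE is the absolute log2 fold change over the square root of F. The tests were also run on simulated counts, whose outcome is not reported here and on which no result rests. Alternatives were other scalings and filters, DESeq2 1.42.0, a replicate block, a length offset and leaving out each replicate. Shares were tested in SciPy 1.17.1. Floors of 3 counts cover counting error only.

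Groups and replicate numbers came from the labels. WT and KO hearts of 1 number are different animals, and their deviations from the group means had r of -0.18, 0.33 and 0.39 in RNA and 0.059, 0.03 and 0.0055 in footprints, so the numbers were not taken to pair them. The replicate block in fits of 1 assay is that shared number. In fits of both assays it is the heart, with RNA and footprint libraries of 1 genotype and number taken as 1 heart, which the labels do not state.

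The members, gene lists and tests were chosen with earlier results of these data known. Named with full values were *Rpl3l*, members with an adjusted p below 0.05 between genotypes, up to 6 per comparison with the lowest unadjusted p below 0.05, the 3 highest and 3 lowest in footprints per kb, and the porin, fusion, fission and ER contact genes. Other members named stand at an extreme of a ratio or were chosen after their values were seen.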

Additional observations from a re-analysis of the deposited data

How the results depend on the processing

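No member passed the adjusted threshold between genotypes in RNA, footprints or TE under any alternative tried (scalings, DESeq2, filters, the block, leaving out libraries). All 112 alternative values of paralog shares moved by less than 1 SD. Leaving out 1 of 3 libraries cannot move a mean that far, so for those alternatives this is no sign of stability. With 1 library left out, the KO minus WT footprint share ran from 1.449 to 2.276 percentage points for *Vdac3* and from -2.463 to 0.2732 for *Vdac1*. Counts of genes called over all genes moved more than those of members, and the cause was not tested. In RNA 4 genes were called without a filter, and in footprints 5 with DESeq2 and 60 without a filter (13 higher, 47 lower). In TE there were 1 with DESeq2 and 3 without a filter. Without a filter footprints differed from RNA for 9030 genes in WT and 8846 in KO, where more genes were tested. With the replicate number as a block, which is not known to pair WT and KO hearts, 4 genes were called in footprints. With the heart as a replicate block, *Pacs2* in TE turned to 0.0246 and the WT ratio of *Timm8a1* to -0.0261; neither block changed a call of a member between genotypes. Leaving out 1 library at a time gave 1 to 2 genes in footprints.

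Most log2 values that changed sign were near 0. With the length offset, some members called in the ratio in the main fits changed sign too. Among them were *Tomm7*, to 0.618 in WT and 0.576 in KO, and *Tomm20*, to 0.133 and 0.386. In KO *Timm9* turned to 0.0995, and *Oma1* went from 0.522 (called higher) to -0.0555. The WT ratio of *Timm8a1* was -0.0661 with median-of-ratios scaling and -0.0663 with DESeq2. Without a filter, TE was 0.0439 for *Pacs2* and 0.00536 for *Vdac1*, and the ratio of footprints to RNA was -0.277 for *Oma1* and -0.376 for *Timm8a1* in WT and, in KO, -0.248 for *Timm8a1*, -0.252 for *Rmdn3*, -0.0559 for *Vdac3*, -0.0122 for *Tomm22* and -0.0909 for *Tomm40*. With a mean of at least 50 counts, RNA was 0.0108 for *Mfn1* and 0.0118 for *Immt*, and the ratio was -0.268 for *Oma1* and -0.369 for *Timm8a1* in WT and, in KO, -0.285 for *Timm8a1*, -0.291 for *Rmdn3*, -0.0994 for *Vdac3*, -0.0584 for *Tomm22* and -0.128 for *Tomm40*. With the length offset the ratio was -0.457 for *Oma1* in WT and, in KO, 0.00579 for *Mfn1*, -0.101 for *Rmdn3* and -0.00676 for *Tomm40*.

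With 1 library left out, RNA ran from -0.199 to 0.0332 for *Fis1*, -0.126 to 0.78 for *Vdac1*, -0.126 to 0.242 for *Vdac2*, -0.109 to 0.246 for *Vdac3*, -0.157 to 0.162 for *Timm9*, -0.0837 to 0.13 for *Tomm40*, -0.0976 to 0.0849 for *Mfn1*, -0.225 to 0.247 for *Vapb*, -0.00175 to 0.264 for *Mfn2* and -0.0815 to 0.0453 for *Immt*. Footprints ran from -0.0268 to 0.289 for *Mfn1*, -0.0656 to 0.158 for *Mff*, -0.375 to 0.0529 for *Rmdn3*, -0.0583 to 0.185 for *Vdac2*, -0.349 to 0.0638 for *Timm50* and -0.265 to 0.0726 for *Tomm22*. TE ran from -0.254 to 0.0307 for *Mff*, -0.427 to 0.104 for *Vapb*, -0.0844 to 0.077 for *Pacs2*, -0.709 to 0.222 for *Vdac1* and -0.173 to 0.186 for *Vdac2*. The ratio ran from -0.249 to 0.0949 for *Vdac3* and -0.477 to 0.214 for *Timm8a1* in WT, and in KO from -0.152 to 0.226 for *Timm8a1*, -0.159 to 0.271 for *Rmdn3* and -0.0681 to 0.426 for *Vdac3*. In the KO ratio, 23 to 29 members were called with 1 library left out, against 28 in the main fit. Over all genes 5373 to 6206 were called in the same fits, against 5842 in the main fit. The call of *Timm9* was lost without KO 1 (-0.56, adjusted p = 0.195, edgeR) and that of *Timm50* without KO 3 (-0.591, adjusted p = 0.0569, edgeR). *Oma1* lost its call without KO 1 (0.332, adjusted p = 0.205, edgeR), KO 2 (0.54, adjusted p = 0.0526) or KO 3 (0.569, adjusted p = 0.0562). With DESeq2 *Oma1* also missed the threshold (0.43, adjusted p = 0.0523).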
